A study of Mus musculus with 91 samples.

Results

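Mature miRNAs of the epiblast (Epi) were compared between *Dnmt3a/3b*-DKO and control mouse embryos at embryonic day 6.5 (E6.5), with 4 libraries in each group, 8 of the 91 libraries of the series. The rule took every column labelled as E6.5 Epi from DKO or control embryos and all 1504 mature miRNAs of the count table, of which the filter on low counts left out 1095. The embryos came from Oct4-EGFP males on a C57BL/6J background crossed with B6D2F1 females, which the labels give as C57BL/6 male X F1 female. Mutants were made in one step by injecting zygotes with mRNA of a cytosine base editor and guide RNAs that write stop codons into *Dnmt3a* and *Dnmt3b*, so each embryo is a founder with alleles of its own. The Epi, the layer that forms the embryo proper, was separated by needle from the extraembryonic ectoderm (Exe). RNA at 100 pg per library was sequenced by Cas9-assisted small RNA sequencing (CAS-seq), and the sex, litter and number of embryos behind each library were not given. The groups used for comparison were E6.5 Epi of *Dnmt1*-KO embryos and of *Dnmt*-TKO embryos, in which *Dnmt1*, *Dnmt3a* and *Dnmt3b* were all targeted, and E7.5 Epi and E6.5 Exe of DKO and control embryos, all made in the same cross. What the control zygotes were injected with is not given in the sources used here.

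DNMT3A and DNMT3B place new methyl groups on cytosines as the embryo implants, and DNMT1 copies them onto the new strand at each cell division. Many genes of the germ line carry methylated promoters in somatic cells and are silent there. A miRNA is cut from a longer hairpin transcript, each hairpin can give a 5p and a 3p arm, and bases 2 to 8 of the mature strand, its seed, choose the messenger RNAs that it represses. The pluripotent epiblast is rich in miRNAs of the *miR-290-295* and *miR-302* clusters, which share a seed and hold stem cells in cycle.

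The DKO libraries held between 154977 and 212088 miRNA counts and the controls between 281158 and 458837, so the mutants were sequenced less deeply. The level that 3 counts give was between 6.54 and 19.4 CPM, the count scaled to the library total, and a lower level could not be told from 0. These floors cover counting error only, since reads amplified by PCR without molecular identifiers are not independent molecules. Nothing in the labels says whether libraries of a group came from separate embryos, so p-values measure the spread between libraries. The *Dnmt* transcripts are not small RNAs and the mutation could not be checked in these data. The tissue label was checked on the miRNAs of the *miR-302* cluster, which includes *miR-367* and marks the epiblast. They took 19.7% ± 3.99 (SD, n = 4) of the counts in control Epi and 2.45% ± 0.665 (n = 4) in control Exe.

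In DKO Epi, 40 miRNAs (9.78% of those tested) were higher and 21 (5.13%) were lower than in controls, at the study's thresholds of an absolute log2 fold change over 0.5 and an unadjusted p under 0.05. The test was edgeR's quasi-likelihood test, fitted over the 16 E6.5 Epi libraries of the 4 genotypes. After Benjamini-Hochberg adjustment, 14 miRNAs (3.42%) were higher and 0 (0%) were lower. Without adjustment 22 had a lower level at a p under 0.05, and DESeq2 called 8 lower and 22 higher after adjustment. Levels did not overlap between the groups for 50 miRNAs (12.2%) that were higher in every DKO library and for 23 (5.62%) that were lower in every one. The split between the directions depended on the scaling. The higher calls made up 65.6% of all calls with edgeR's TMM factors, 50.8% with the RLE factors and 49.4% with DESeq2. The median log2 fold change of all tested miRNAs was -0.12 with TMM factors and -0.17 with RLE factors, and a change is best read against that shift.

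Of the 14 miRNAs past the adjusted threshold, 10 came from 1 X-linked cluster. The cluster lies on chromosome X from base 66776757 to 66839125 of GRCm38, between *Slitrk2* and *Fmr1*. Its 19 hairpin genes sit on the minus strand within 62369 bases, and its miRNAs are known from the germ cells of the testis. The RefSeq mature sequences of the members that the results turn on are given here with the seed in capitals, to show which of them share a seed.
miR-470-5p: uUCUUGGAcuggcacuggugagu
miR-465a-3p, miR-465b-3p and miR-465c-3p: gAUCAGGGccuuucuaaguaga
miR-465a-5p: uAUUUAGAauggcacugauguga
miR-465b-5p: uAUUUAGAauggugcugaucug
miR-465c-5p: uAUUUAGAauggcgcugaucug
miR-871-3p: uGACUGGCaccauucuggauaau
miR-741-3p: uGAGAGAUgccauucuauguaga
miR-743a-3p: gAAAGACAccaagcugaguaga
miR-743b-3p: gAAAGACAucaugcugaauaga
miR-878-3p: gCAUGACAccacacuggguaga
miR-880-3p: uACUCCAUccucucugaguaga

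The 3 *miR-465-3p* miRNAs have one sequence and the same counts in these libraries, so they stand for 1 measurement. The 5p arms of *miR-465a*, *miR-465b* and *miR-465c* share the seed AUUUAGA, and *miR-743a-3p* and *miR-743b-3p* share AAAGACA.

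The list of X-linked germline miRNAs held 38 mature miRNAs, 34 in this cluster and 4 from the *miR-201* and *miR-547* hairpins farther along the chromosome. Of these, 21 were tested, 15 were higher in DKO Epi and 0 were lower, against 9.78% higher among all miRNAs tested. The 15 came from 10 hairpins, counting copies of a hairpin once, and made 13 distinct rows of counts, and the 10 with an adjusted p under 0.05 made 8. The median log2 fold change of the 21 was 1.91, against -0.17 for the other tested miRNAs. The levels of 13 of the 21, which made 11 distinct rows, did not overlap between the groups and were higher in DKO libraries, against 12.2% of all miRNAs. The 17 members that were not tested had too few counts, 8 of them with 0 counts in all 8 libraries, among them the 4 arms of *miR-201* and *miR-547*. Passing the filter can itself favour a member that is high in one group, so the counts over tested members describe those members alone.

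**Figure D1:**
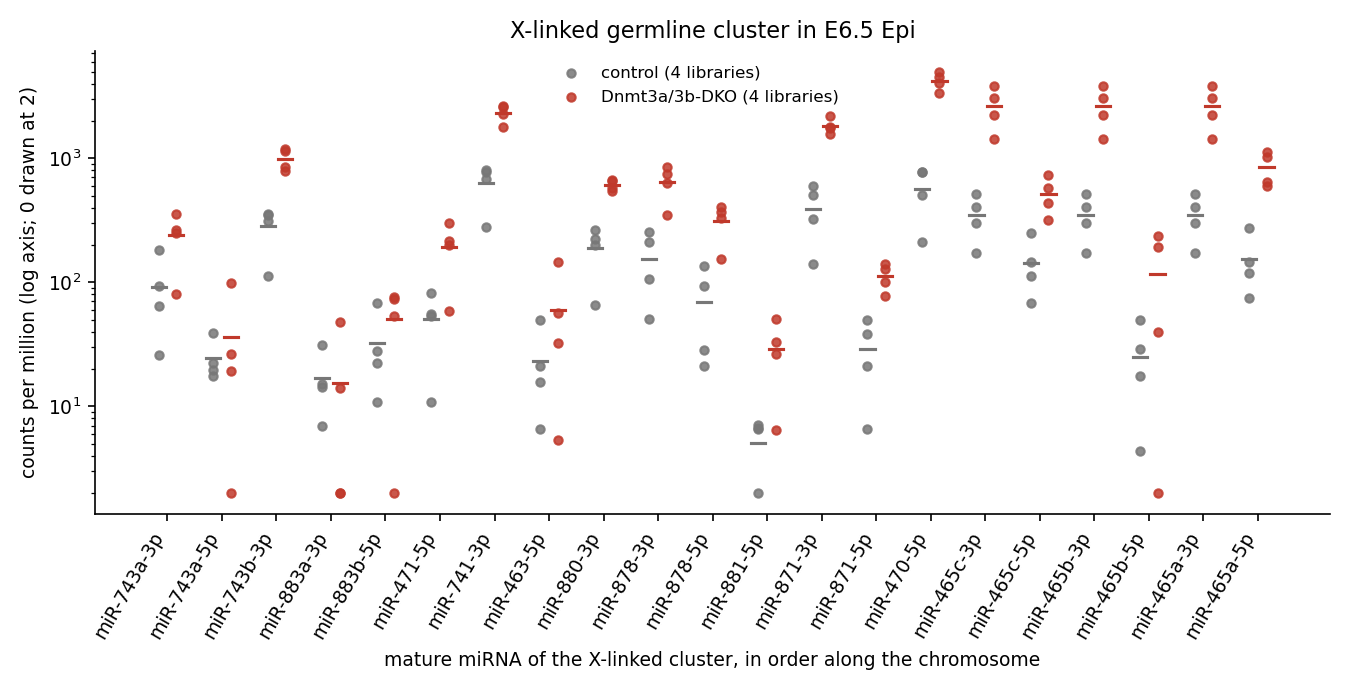
CPM of each tested miRNA of the X-linked cluster (log axis, 0 drawn at 2) in 4 control and 4 *Dnmt3a/3b*-DKO E6.5 Epi libraries, in order of position, with points for libraries and short lines for means. For 13 of the 21 every DKO library lies above every control library, and the 3 *miR-465-3p* columns repeat 1 measurement.

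The miRNA with the highest level in the cluster was *miR-470-5p*. Its CPM was 4498, 4974, 3381 and 4023 in DKO replicates 1 to 4 and 779, 772, 502.6 and 211 in control replicates 1 to 4. Every DKO library was above every control, and control replicate 4 was the lowest of the controls. The log2 fold change was 2.88 ± 0.37 (SE), with an adjusted p of 4.07e-05 by edgeR. The *miR-465-3p* sequence gave 2211, 3791, 3039 and 1424 CPM in DKO libraries and 513, 405, 302 and 172 in controls. Here too the groups were apart, with a log2 fold change of 2.87 ± 0.50 (SE) and an adjusted p of 0.00099. *miR-871-3p* was at 2183, 1797, 1568 and 1738 CPM in DKO and at 594, 505, 324 and 141.7 CPM in control libraries, and its log2 fold change of 2.21 ± 0.40 (SE) had an adjusted p of 0.00135. *miR-741-3p* was at 2603, 2630, 2258 and 1801 CPM in DKO and at 803, 772, 681 and 279 CPM in control libraries. Its log2 fold change was 1.84 ± 0.34 (SE), with an adjusted p of 0.00154. All 4 sequences were therefore measurable in the control Epi libraries, and each was higher in every mutant library. The part of Exe RNA in these control levels was not tested.

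The remaining members past the adjusted threshold were less abundant. *miR-465a-5p* rose by a log2 fold change of 2.45 (adjusted p = 0.0217, edgeR), *miR-878-3p* by 2.03 (adjusted p = 0.0352, edgeR), *miR-743b-3p* by 1.79 (adjusted p = 0.0113, edgeR) and *miR-880-3p* by 1.69 (adjusted p = 0.0352, edgeR). Each of them was higher in 4 of 4 DKO libraries than in any control. *miR-465a-5p* ranged from 600.5 to 1121 CPM in DKO and from 74.1 to 276 CPM in control libraries, and *miR-880-3p* from 542.2 to 669.5 CPM and from 65.4 to 263 CPM. A further 5 members passed only the unadjusted threshold, *miR-465b-5p* (log2 fold change 2.22), *miR-878-5p* (2.09), *miR-871-5p* (1.91), *miR-471-5p* (1.88) and *miR-465c-5p* (1.83). The call of *miR-465b-5p* was lost in 8 of 20 alternatives and that of *miR-471-5p* in 2 of 21. The adjusted p of *miR-470-5p*, *miR-465-3p*, *miR-871-3p* and *miR-741-3p* stayed under 0.05 in all 21 alternatives, with a largest value of 0.0242 among them, for *miR-465-3p* (edgeR and DESeq2). That of *miR-743b-3p* missed it in 1 alternative and that of *miR-465a-5p* in 4. The adjusted calls of *miR-878-3p* and *miR-880-3p* were each lost under 11 of 21 alternatives, though both stayed past the study's thresholds under all 21. Without control replicate 4, 6 of the cluster's miRNAs passed the adjusted threshold instead of 10.

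Both arms of *miR-871* and of *miR-878* were higher in DKO Epi. The 5p arms of *miR-465a*, *miR-465b* and *miR-465c* were each higher too, with overlapping groups for *miR-465b-5p*, while the reads of their common 3p sequence cannot be assigned to one of the 3 hairpins. *miR-881-5p* had at most 3 counts in each control, and its level in DKO Epi was at least 3.39-fold higher than the level that 3 counts per control library allow, but the test did not call it (unadjusted p = 0.054, adjusted p = 0.327, edgeR). *miR-883a-3p*, the only tested member of the cluster with a negative log2 fold change, was at 14.1, 0, 0 and 47.8 CPM in DKO and 6.99, 14.2, 31.3 and 15.3 CPM in control libraries, with groups that overlapped.

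As a share of all counts, which uses the library total and no further factor, the X-linked germline miRNAs took 2.18%, 2.59%, 2.14% and 1.55% in DKO replicates 1 to 4. In control replicates 1 to 4 they took 0.542%, 0.505%, 0.372% and 0.169%. The means were 2.11% ± 0.429 (SD, n = 4) and 0.397% ± 0.169 (SD, n = 4), a 5.33-fold higher share in the mutants, with no overlap. The exact two-sided permutation test over the libraries gave p = 0.0286, the smallest that 4 against 4 libraries allow, and 0.0794 after adjustment over the 25 lists tested in this way. The other X-linked miRNAs took 4.14% ± 0.78 in DKO and 4.14% ± 0.65 in control libraries (SD, n = 4). Of their 35 tested members 2 were higher and 0 were lower, against 9.78% and 5.13% of all miRNAs, and the median log2 fold change was -0.15.

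The same miRNAs were also present in Exe, the tissue next to the Epi. In control Exe at E6.5 the germline share was 1.12% ± 0.461 (SD, n = 4), above that of control Epi. Exe is marked by the miRNAs of an intron of *Sfmbt2* (*miR-297*, *miR-466*, *miR-467* and *miR-669*), which took 19.1% ± 4.85 of the counts in control Exe. In Epi they took 2.82%, 5.70%, 1.73% and 0.235% in DKO replicates 1 to 4 and 6.71%, 10.1%, 2.59% and 2.12% in control replicates 1 to 4. DKO replicate 4 had the lowest marker share, 0.235%, and the lowest germline share of its group, 1.55%, and control replicate 4 likewise had the lowest of both in its group. The marker means were 2.62% ± 2.31 in DKO and 5.37% ± 3.74 in controls (SD, n = 4), with overlapping groups. The part of Exe RNA in the germline share was not tested.

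In E6.5 Epi of the other mutants, the *Dnmt1*-KO libraries took 1.13% ± 0.262 of the counts on germline miRNAs and the *Dnmt*-TKO libraries 2.28% ± 0.806 (SD, n = 4 each), beside 2.11% in DKO and 0.397% in control libraries. DKO and *Dnmt*-TKO overlapped, and the lowest DKO library, at 1.55%, was above the highest *Dnmt1*-KO library, at 1.39%. When the 2 mutants were tested against each other in the same fit, 22 miRNAs (5.38%) were higher and 18 (4.4%) were lower in DKO than in *Dnmt1*-KO Epi at the study's thresholds, and edgeR called 0 of the cluster's miRNAs after adjustment. Of the 21 cluster members tested, 4 rows, which are 2 sequences, were higher at the unadjusted threshold. *miR-470-5p* was at 3381 to 4974 CPM in DKO and at 1500 to 2615 CPM in *Dnmt1*-KO libraries, a log2 difference of 1.08 ± 0.34 (SE, unadjusted p = 0.00487, adjusted p = 0.191, edgeR). *miR-465-3p* differed by 1.33 ± 0.47 (SE, unadjusted p = 0.0103, adjusted p = 0.191, edgeR), and its levels overlapped. The median log2 difference of the 21 was 0.61, against -0.06 for the other miRNAs.

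One day later, at E7.5, the control Epi had a germline share of 0.196% ± 0.108 (SD, n = 3) and the DKO Epi 2.48% ± 0.413 (SD, n = 4). In a fit over both tissues and stages, 25 of the 28 cluster members tested were higher in E7.5 DKO Epi, where 12.3% of all 625 miRNAs tested in that fit were higher. The DKO libraries ranged from 1.55% to 2.59% at E6.5 and from 2.18% to 3.05% at E7.5 and overlapped, as did the controls, from 0.169% to 0.542% and from 0.116% to 0.319%. The difference between the effects was tested as an interaction, E6.5 minus E7.5. Of the 28 members 12 had a lower log2 fold change at E6.5, against 13.9% of all miRNAs, and 5 passed the adjusted threshold. Among these *miR-741-3p* differed by -1.79 ± 0.50 (SE, adjusted p = 0.0352, edgeR) and *miR-880-3p* by -2.39 ± 0.59 (SE, adjusted p = 0.0256, edgeR). The E7.5 libraries were sequenced more deeply than the E6.5 ones, and the part of depth in the difference was not tested.

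In Exe at E6.5 the germline share was 2.65% ± 0.586 (SD, n = 4) in DKO and 1.12% in control libraries. There 13 of the 28 members were higher, against 5.6% of all miRNAs. The effect in Epi was tested against that in Exe, and 7 of the 28 had a higher log2 fold change in Epi, against 9.76% of all miRNAs. The 3 that passed the adjusted threshold were the *miR-465-3p* miRNAs, with a difference of 2.08 ± 0.51 (SE, adjusted p = 0.0224, edgeR).

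**Figure D2:**
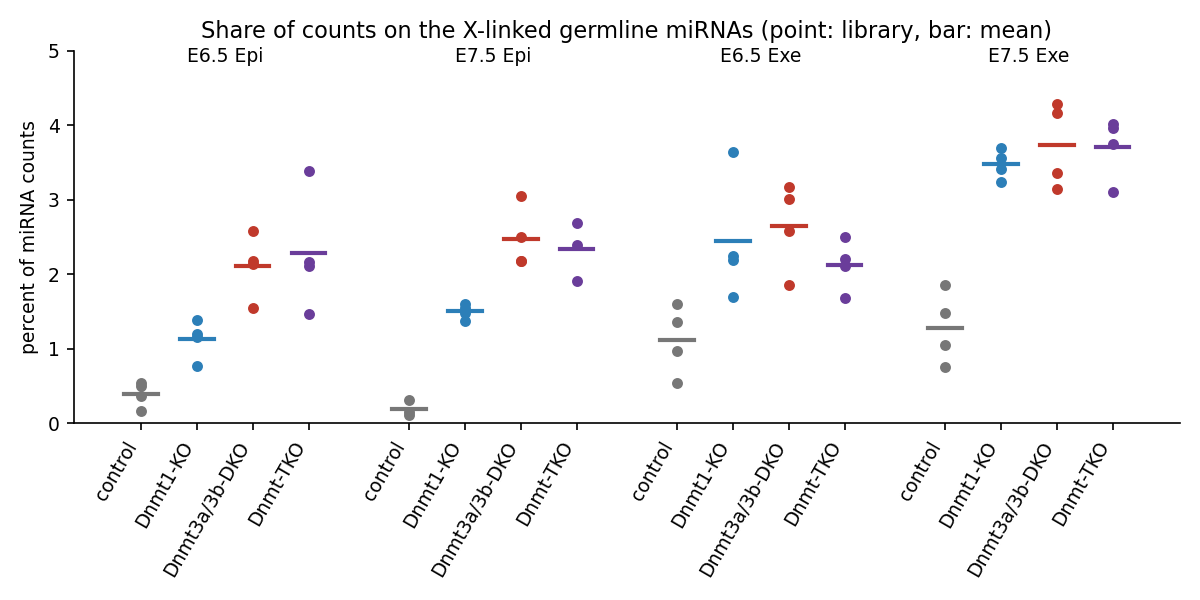
Percent of all miRNA counts on the X-linked germline miRNAs in every library of 4 genotypes, 2 tissues and 2 stages, with points for libraries and bars for means. Control Epi had the lowest means, 0.397% at E6.5 and 0.196% at E7.5, and E6.5 DKO Epi stood at 2.11%.

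Outside the cluster, 25 miRNAs were higher in DKO Epi and 4 of them passed the adjusted threshold. *miR-5099* was the most abundant, at 55453, 51971, 63274 and 58233 CPM in DKO and at 25412, 24591, 13335 and 18867 CPM in control libraries. Its log2 fold change was 1.45 ± 0.27 (SE, adjusted p = 0.00169, edgeR). *miR-92b-3p*, a member of the *miR-92* seed family, was at 5121, 9164, 8498 and 7572 CPM in DKO and at 3542, 3226, 2203 and 2570 CPM in control libraries, and its log2 fold change was 1.36 ± 0.34 (adjusted p = 0.0223, edgeR). *miR-1195* rose by 2.03 ± 0.42 (SE, adjusted p = 0.00502, edgeR) and *miR-5126* by 2.36 ± 0.58 (SE, adjusted p = 0.0217, edgeR). In all 4 the groups did not overlap. The adjusted p of *miR-1195* stayed under 0.05 in all 21 alternatives, and that of *miR-5126* was not under it in 6 of 21. The sequences of the last pair are printed because both are rich in G and C, *miR-5126* without any other base.
miR-1195: uGAGUUCGaggccagccugcuca
miR-5126: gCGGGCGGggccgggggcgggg

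Base composition moved with the fold change among the miRNAs outside the cluster. A RefSeq mature sequence was matched for 341 of the tested miRNAs (83.4%). Over the 320 outside the cluster, the Spearman correlation across miRNAs between the percent of G and C and the log2 fold change was 0.40, a description of miRNAs that share libraries and are not independent. Below 40% G and C, the median log2 fold change of the 55 miRNAs was -0.59. It was -0.21 for 116 miRNAs from 40% to 50%, 0.08 for 92 from 50% to 60% and 0.49 for 57 at 60% or more. Of the called miRNAs outside the cluster, the 22 higher ones had a median of 60.9% G and C and the 15 lower ones 36.4%. The cluster had medians of 1.90 below 40%, 1.83 from 40% to 50% and 2.46 from 50% to 60%. Its 15 higher miRNAs had a median of 40.9% G and C, and the 8 tested members below 40% had a median log2 fold change of 1.90 where the other miRNAs of that range had -0.59.

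The same gradient was seen library by library. The median of the G and C rich miRNAs (60% or more) minus that of the poor ones (below 40%), each taken against the mean of the 8 libraries on a log2 scale of CPM plus 10, was 0.26, 0.88, 0.45 and 0.34 in DKO replicates 1 to 4. It was -0.32, -0.30, -0.86 and -0.73 in control replicates 1 to 4, so the groups did not overlap in this measure either. When each library was given an offset per range of G and C, a setting chosen after the data were seen, 32 miRNAs were higher and 7 were lower among 339 tested. On the same miRNAs without offsets the counts were 32 and 22. With the offsets 16 members of the cluster were higher and 10 passed the adjusted threshold. The part of the gradient in the other results was not tested beyond these offsets. With the 8 libraries thinned to the smallest total among them and the other 8 of the fit left as they were, 40 miRNAs were higher and 19 lower, and 10 of the cluster passed the adjusted threshold.

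**Figure D3:**
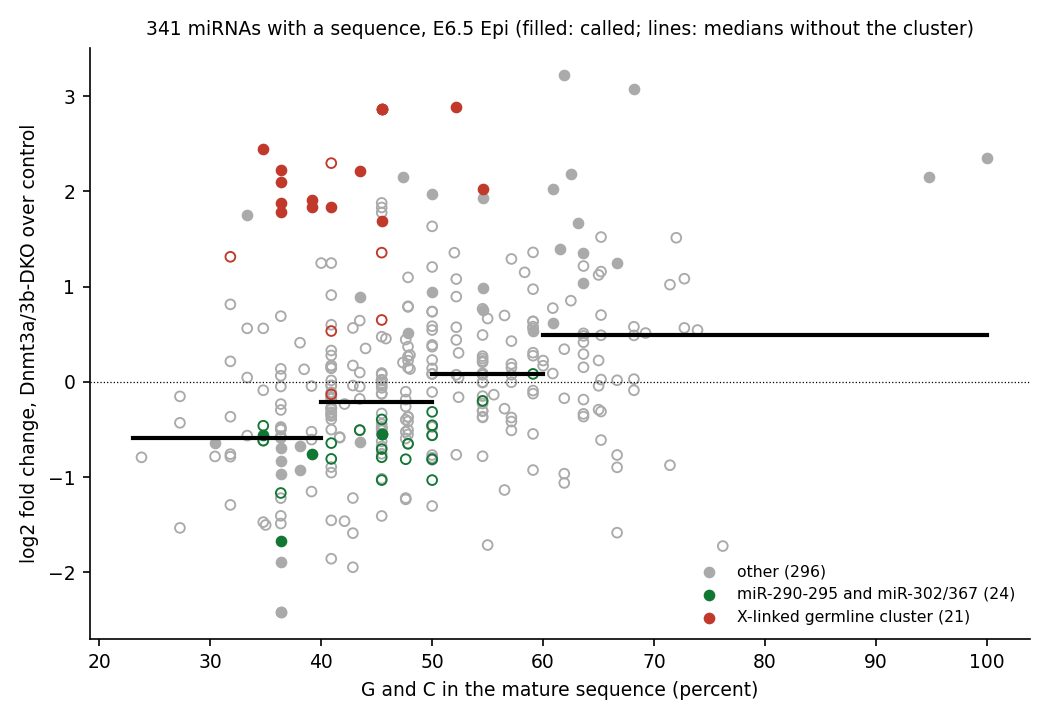
Log2 fold change (DKO over control) of 341 tested miRNAs against the percent of G and C in the mature sequence, with filled points for called miRNAs and black lines for the medians outside the cluster in 4 ranges. The medians climb from -0.59 to 0.49, and the X-linked cluster lies above them in the ranges below 60%.

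Most miRNAs of the pluripotency clusters had a negative log2 fold change in DKO Epi, few of them passed the test, and the direction of the most abundant ones depended on the treatment of base composition. Both clusters, on chromosome 7 (*miR-295-3p* at bases 3220815 to 3220837 of GRCm38) and chromosome 3 (*miR-302b-3p* at 127545275 to 127545297), give miRNAs with the seed AAGUGCU, shown here for 4 of them with the seed in capitals.
miR-294-3p: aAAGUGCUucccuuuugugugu
miR-295-3p: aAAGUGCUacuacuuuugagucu
miR-302b-3p: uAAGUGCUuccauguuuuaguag
miR-302d-3p: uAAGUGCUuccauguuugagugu

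Of the 17 tested miRNAs of the *miR-290-295* cluster, 3 were lower at the study's thresholds and 0 were higher, against 5.13% and 9.78% of all miRNAs, with a median log2 fold change of -0.65. The 3 are 2 measurements, since *miR-290a-5p* and *miR-290b-3p* have the same counts. Levels of 7 of the 17, which made 6 distinct rows, did not overlap and were lower in DKO libraries, against 5.62% of all miRNAs. Of the 9 of the *miR-302* cluster, 2 were lower and 0 were higher, with a median of -0.62. After adjustment 0 members of either passed edgeR's threshold, and DESeq2 called 10 lower at the study's thresholds in both together. *miR-295-3p*, the most abundant of its cluster, was at 37258, 44559, 44690 and 31064 CPM in DKO and at 56307, 58600, 55191 and 53490 CPM in control libraries. The groups did not overlap, and the log2 fold change was -0.56 ± 0.18 (SE, unadjusted p = 0.00577, adjusted p = 0.157, edgeR). With offsets by G and C it was 0.21, the opposite direction, and the median of all tested miRNAs was then 0.11. *miR-302b-3p*, the most abundant miRNA of the epiblast cluster, was at 103089, 110189, 112868 and 150964 CPM in DKO and at 150359, 122824, 174696 and 187147 CPM in control libraries, with groups that overlapped. Its log2 fold change was -0.46 (adjusted p = 0.319, edgeR), and 0.31 with the offsets. *miR-367-3p* and *miR-302d-3p* were called lower, by log2 fold changes of -1.67 and -0.76, both with overlapping groups.

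As a share of counts, *miR-290-295* took 15.6%, 14.0%, 13.1% and 11.4% in DKO and 17.2%, 19.5%, 18.1% and 17.9% in control libraries. The groups did not overlap, and the exact two-sided permutation test gave p = 0.0286, adjusted to 0.0794. The *miR-302* cluster took 14.5% ± 2.68 in DKO and 19.7% ± 3.99 in controls (SD, n = 4, exact permutation p = 0.0857). The number of lower calls in both clusters together was 5. It was 1 without control replicate 3, 2 without control replicate 4, DKO replicate 2 or DKO replicate 3, 8 without control replicate 2 and 13 without control replicate 1.

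A second seed family held members that differed in direction. The seed AUUGCAC is shared by 6 tested miRNAs, and their mature sequences differ outside it.
miR-25-3p: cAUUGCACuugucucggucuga
miR-32-5p: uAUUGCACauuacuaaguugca
miR-92a-3p: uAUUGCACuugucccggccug
miR-92b-3p: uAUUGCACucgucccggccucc
miR-363-3p: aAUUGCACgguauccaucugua
miR-367-3p: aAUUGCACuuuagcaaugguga

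In this family 1 was higher, *miR-92b-3p*, and 1 was lower, *miR-367-3p*, and the median log2 fold change was -0.07. *miR-92a-3p*, at 75685 ± 7449 CPM in control and 104703 ± 6982 CPM in DKO libraries (SD, n = 4), had no overlap between the groups and a log2 fold change of 0.43, under the threshold of 0.5. The percent of G and C in the 6, from the highest to the lowest fold change, was 63.6% in *miR-92b-3p*, 57.1% in *miR-92a-3p*, 40.9% in *miR-363-3p* (log2 fold change -0.04), 50% in *miR-25-3p* (-0.11), 31.8% in *miR-32-5p* (-1.29) and 36.4% in *miR-367-3p*. The whole *miR-17-92* list with its paralogs had 1 higher and 0 lower of 23 tested, against 9.78% and 5.13% of all miRNAs, with a median of -0.12. Its share of counts was 14.6% ± 1.80 in DKO and 11.8% ± 0.402 in controls (SD, n = 4, exact permutation p = 0.0286, adjusted to 0.0794). *miR-92a-3p* alone rose by about as much as the list, so the other members together did not rise.

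The miRNAs of the imprinted *Dlk1-Dio3* locus, which are made from the maternal chromosome, had few calls in DKO Epi. The locus lies on chromosome 12, and 113 of its mature miRNAs are in the table. Of the 80 tested, 4 were higher and 7 were lower, against 9.78% and 5.13% of all miRNAs, and the 7 made 6 distinct rows of counts. After adjustment edgeR called 0, and the median log2 fold change was -0.09, against -0.12 for the others. At the study's thresholds, leaving out 1 library gave 1 to 4 higher and 2 to 12 lower. DESeq2 gave 12 lower, and DKO and control libraries alone gave 9 higher. The share of counts was 17.3%, 15.5%, 17.3% and 13.3% in DKO and 14.2%, 13.5%, 15.2% and 13.7% in control libraries, with overlapping groups and an exact permutation p of 0.2. *miR-127-3p*, made antisense to *Rtl1*, a gene that it targets for cleavage, was at 37805, 34984, 48607 and 35799 CPM in DKO and 27975, 25029, 27882 and 24120 CPM in control libraries. Its log2 fold change was 0.53 ± 0.20 (SE, unadjusted p = 0.0129, adjusted p = 0.195, edgeR), and 6 of 21 alternatives, among them DESeq2 and the RLE factors, took it out of the calls. The largest decrease was that of *miR-136-5p*, from the same antisense group, at 42.4, 0, 6.45 and 47.8 CPM in DKO and 122, 124.5, 163 and 120 CPM in controls, and it fell by 2.42 ± 0.90 on the log2 scale (adjusted p = 0.195, edgeR). The table lists the same counts for *miR-3071-3p*, which lies on the opposite strand. *miR-376b-3p* fell by 0.93 on the log2 scale (adjusted p = 0.195, edgeR).

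Along the locus, 0 of 13 tested miRNAs upstream of *Rtl1* were called. Of 11 within *Rtl1* on either strand, 1 was higher and 2 were lower, *miR-136-5p* and *miR-3071-3p* with the same counts. In *Rian* 0 of 5 were called, and 3 were higher and 5 lower of 51 in the *Mirg* cluster. In the test of DKO against *Dnmt1*-KO, 14 of the 80 were lower in DKO, against 4.4% of all miRNAs, and 0 were higher, with a median of -0.48. In *Dnmt1*-KO Epi the locus took 21.03% ± 2.21 of the counts and in *Dnmt*-TKO Epi 26.3% ± 3.35 (SD, n = 4 each), beside 15.9% ± 1.88 in DKO and 14.1% ± 0.784 in controls. The 6 miRNA genes that the study deleted later (*miR-409*, *miR-127*, *miR-540*, *let-7b*, *miR-369*, *miR-541*), of which *let-7b* lies outside the locus, were chosen on libraries that include these, so their direction is not independent evidence. Of their 11 tested arms 2 were higher and 0 were lower in DKO Epi, against 9.78% and 5.13% of all miRNAs, with a median log2 fold change of 0.09. Their share of counts was 7.92%, 6.99%, 8.09% and 6.15% in DKO and 5.69%, 5.39%, 5.60% and 5.07% in control libraries, with no overlap (exact permutation p = 0.0286, adjusted to 0.0794). The 2 were *miR-127-3p* and *miR-409-5p*, at 0.52 ± 0.21 (SE, adjusted p = 0.257, edgeR). The call of *miR-409-5p* was lost in 9 of 21 alternatives. *let-7b-5p* was at 14.1, 113, 83.9 and 63.8 CPM in DKO and 6.99, 21.3, 15.6 and 23.97 CPM in controls and was not called (unadjusted p = 0.111, edgeR). *miR-296-3p*, another miRNA the study followed, was at 717 ± 190 CPM in DKO and 727 ± 159 CPM in controls (SD, n = 4).

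The remaining lists held few calls. All 34 tested miRNAs of the *Sfmbt2* intron had a negative log2 fold change and 6 were lower, against 5.13% of all miRNAs, with a median of -1.11. The 34 made 25 distinct rows of counts and the 6 made 5. The count was 0 without control replicate 2 or DKO replicate 4 and 20 without DKO replicate 2. Control replicate 2 and DKO replicate 2 had the highest share of these miRNAs in their groups and DKO replicate 4 the lowest. In such bulk samples fewer Exe cells and less RNA per cell cannot be told apart. The *miR-99/100* and *miR-125* list had 2 higher of 6 tested, against 9.78% of all miRNAs. Its share was 3.85% ± 0.430 in DKO and 2.43% ± 0.508 in controls (SD, n = 4, exact permutation p = 0.0286, adjusted to 0.0794). The *miR-30* and *let-7* lists had 0 calls in 13 and 8 tested. The 5 tested miRNAs of the *miR-15/16* list had a median of -1.23 with 0 calls, and the 6 tested miRNAs with the seed AAAGUGC, from *miR-17* to *miR-106b*, were all negative with 0 calls.

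Among the markers of other cell types, the blood and endothelial list had a higher share in DKO Epi, which came from *miR-142a-5p*. The list took 0.156% ± 0.0192 of the counts in DKO and 0.105% ± 0.00479 in controls (SD, n = 4), with no overlap (exact permutation p = 0.0286, adjusted to 0.0794). Of its 10 tested miRNAs 1 was higher, against 9.78% of all miRNAs. That one, *miR-142a-5p* of blood cells, was at 886, 394, 826 and 893 CPM in DKO and 213, 221, 199 and 231 CPM in controls, and the log2 fold change was 1.76 ± 0.66 (adjusted p = 0.195, edgeR). Its mean rose from 216 to 750 CPM, about as much as the whole list, so the other members together did not rise. The list median of 0.70 was -0.42 with DKO and control libraries alone. Endoderm miRNAs took 0.133% ± 0.0702 in DKO and 0.136% ± 0.0435 in controls, mesenchymal ones 0.017% and 0.0132%, and neural ones 0.0363% and 0.0194%. Their part in the other results was not tested.

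**Figure D4:**
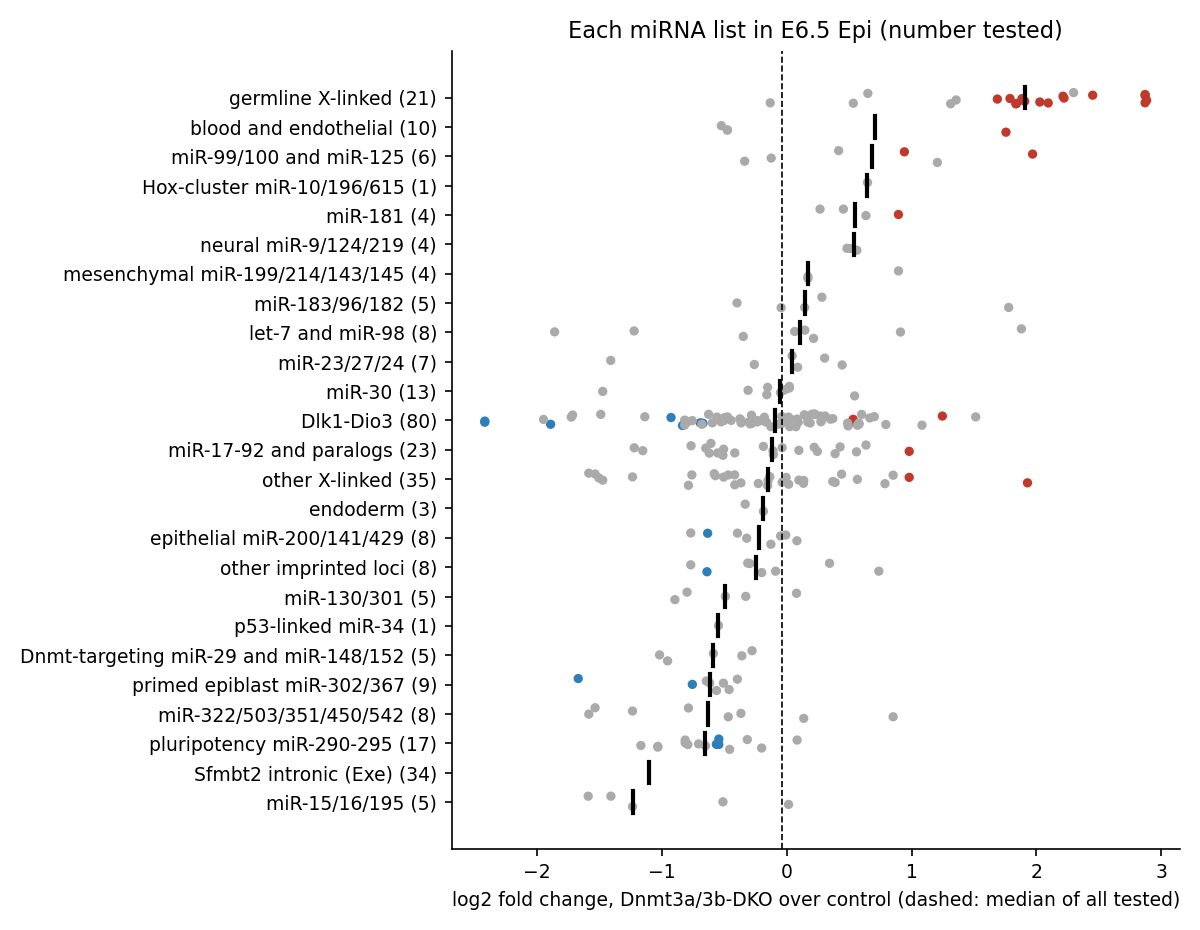
Log2 fold change (DKO over control) of the tested miRNAs of each list that had a matched sequence, with red points for higher and blue points for lower calls. Short bars are list medians over all tested members, and the numbers beside the names count all tested members. The dashed line is the median of the 341 tested miRNAs with a sequence. The *Sfmbt2* list has a bar but no points, since none of its tested miRNAs had a sequence. The X-linked germline list, with a median of 1.91, has the highest median of the lists drawn.

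**Figure D5:**
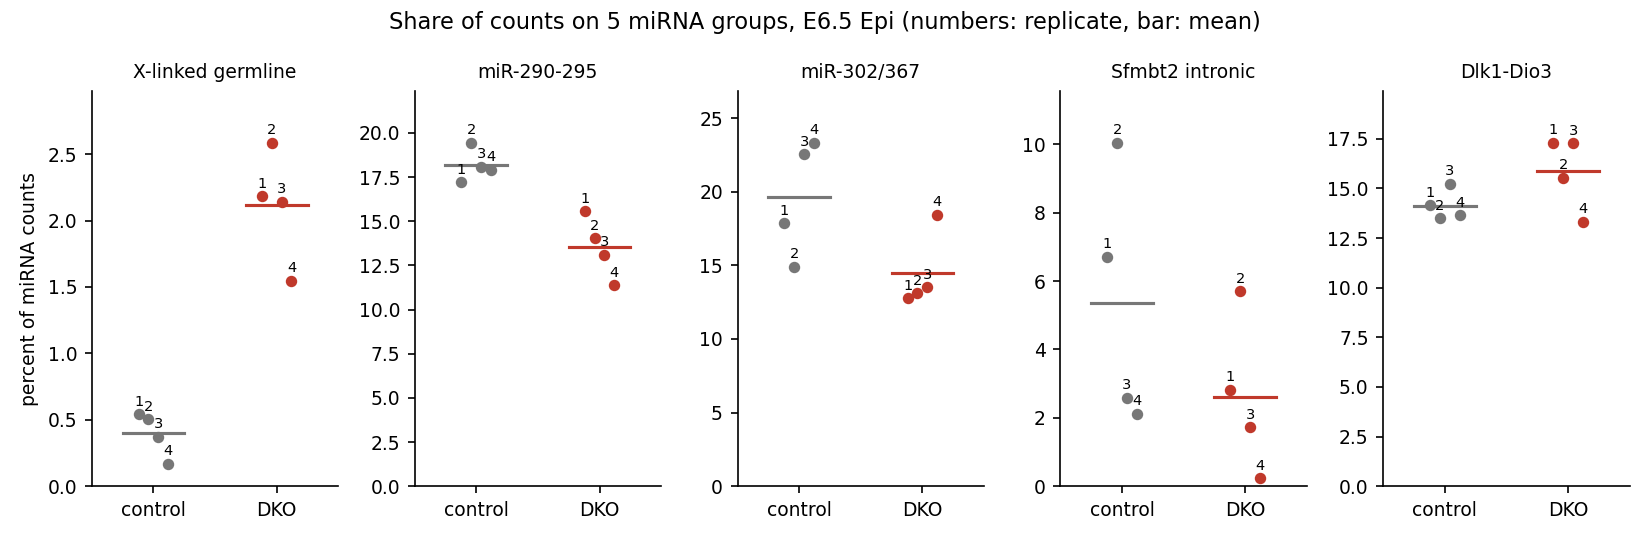
Percent of all counts on 5 groups of miRNAs in the 4 control and 4 DKO E6.5 Epi libraries, with points numbered by replicate and bars for means. The X-linked germline and *miR-290-295* groups did not overlap, and the other 3 did.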

How the data were processed

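The authors trimmed reads with fastp 0.20.1, mapped them with Bowtie 1.2.1.1 to GRCm38, mapped them again to miRBase mature sequences and deposited raw counts per miRNA, in 1 table of 88 columns. For a sequence shared by several miRNAs the table repeats the counts. The authors' own comparisons used DESeq2 1.30.1. Here counts were divided by the library total (CPM, percent of counts) or fitted with edgeR 4.0.16 in R 4.3.3: TMM factors, filterByExpr with a count minimum of 10, group means over 16 E6.5 Epi libraries without covariates, and the quasi-likelihood test, with Benjamini-Hochberg adjustment over the miRNAs tested. The interactions were fitted over 31 DKO and control libraries of both tissues and stages. DESeq2 1.42.0 was an alternative. The SE is the log2 fold change divided by the root of F. Shares were compared by exact permutation of libraries. The fits were tested on simulated data. The log2 fold changes come from the deposited counts. No 2 libraries were copies of each other (chi-square per degree of freedom of at least 13.3 within groups).

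Members and lists were chosen with earlier results of these data known. Genes were named by rule: up to 8 miRNAs per direction by adjusted p, non-overlap and size, filled by unadjusted p, the most abundant member of each list, and the miRNAs the study followed. Any further name, such as *miR-741-3p*, *miR-743b-3p*, *miR-878-3p*, *miR-880-3p*, *miR-5099* or *miR-92b-3p*, was picked with its values known. The alternatives were other scaling, filters, groups and left-out libraries, robust dispersions, thinning to 154977 counts and offsets by G and C. RefSeq mature sequences (GRCm38) were matched by name for 1275 of 1504 miRNAs.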

Additional observations from a re-analysis of the deposited data

Results flagged for a closer look

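Of 176 groups of 4 libraries tested for a library far from the other 3, 12 passed Dixon's 95% critical value, and chance alone gives about 1 in 20. The gap is given as a fraction of the range. In controls it was 0.974 for *miR-1195* (replicate 2 at 224 CPM, the others from 136 to 139), 0.893 for *miR-136-5p* and for *miR-3071-3p* with the same counts (replicate 3 at 163 CPM), 0.880 for *miR-16-5p* (replicate 1 at 3605 CPM), 0.883 for *miR-541-3p* (replicate 2 at 56.9 CPM) and 0.919 for *miR-881-5p* (replicate 1 at 0). Each control had at most 3 counts of *miR-881-5p*, which cannot be told from 0. The share of Hox-cluster miRNAs in controls gave 0.836 (replicate 4). In DKO libraries it was 0.866 for *miR-142a-5p* (replicate 2 at 394 CPM, the others from 826 to 893), 0.944 for *miR-298-5p* (replicate 3 at 11014 CPM), 0.885 for *miR-369-5p* (replicate 2 at 862 CPM), 0.899 for *miR-540-3p* (replicate 1 at 481 CPM) and 0.871 for the share of the *miR-302* cluster (replicate 4 at 18.4%).

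The DKO effect differed between stages, E6.5 Epi minus E7.5 Epi on the log2 scale, by -4.12 for *miR-743a-3p* (adjusted p = 0.0256), -7.17 for *miR-883a-3p* (adjusted p = 0.0357), -1.79 for *miR-741-3p* (adjusted p = 0.0352), -2.39 for *miR-880-3p* and -6.29 for *miR-881-5p* (adjusted p = 0.0256 each, edgeR interaction test). *miR-883a-3p* and *miR-881-5p* had 0 counts in the E7.5 controls, so their fitted values depend on the prior count. Between tissues, E6.5 Epi minus E6.5 Exe, it differed by 2.08 for *miR-465a-3p*, *miR-465b-3p* and *miR-465c-3p*, which share 1 sequence (adjusted p = 0.0224, edgeR interaction test).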

How the results depend on the processing

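The X-linked germline miRNAs kept their direction and stayed past the study's thresholds under all 21 alternatives wherever they are named above as past the adjusted threshold. The calls of lower miRNAs were the least stable.

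DESeq2 gave 45 lower calls (21 by edgeR), 30 adjusted calls (14), 12 lower calls at *Dlk1-Dio3* (7), 13 in the *Sfmbt2* intron (6) and 10 in *miR-290-295* and the *miR-302* cluster together (5), which RLE factors also put at 10, with 1 higher call at *Dlk1-Dio3* (4). TMM factors without that locus gave 3 for the pair of clusters. Without a filter on low counts there were 114 calls (61), 61 lower, 29 in the *Sfmbt2* intron, 10 in the pair of clusters and 86 between DKO and *Dnmt1*-KO (40), and the list medians were -0.87 for the *miR-130* list (-0.49) and 0.36 for *miR-99/100* and *miR-125* (0.68). A mean of at least 10 counts gave 11 lower calls, 4, 3 and 2 in these 3 groups, a median of 1.02 for *miR-99/100* and *miR-125*, and log2 fold changes of 0.044 for *miR-296-3p*, 0.050 for *miR-30c-5p* and 0.00027 for *miR-369-5p*, each with its sign turned. Without the *Dnmt*-TKO libraries there were 40 lower calls, 11 at *Dlk1-Dio3* and 13 in the pair of clusters, and medians of -0.82 for the *miR-130* list and 0.45 for *miR-99/100* and *miR-125*. With DKO and control libraries alone, 9 miRNAs of *Dlk1-Dio3* were higher, the medians were -0.42 for blood miRNAs (0.70) and 0.98 for *miR-99/100* and *miR-125*, and *miR-296-3p* was at 0.0092 and *miR-30c-5p* at 0.025. Thinning the 8 libraries to the same total gave medians of -0.25 and 0.95 for the same lists. The cause was not tested for any of these.

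The offsets by G and C, chosen after the data were seen, gave 39 calls, 7 lower, 1 higher and 3 lower at *Dlk1-Dio3*, 2 in the pair of clusters and 0 in the *Sfmbt2* intron, none of whose tested miRNAs had a sequence. The same miRNAs without offsets gave 1 higher at *Dlk1-Dio3*, 11 in the pair of clusters, 0 in the *Sfmbt2* intron and a median of -0.51 for blood miRNAs. The medians with offsets were 2.54 for the X-linked germline list (1.91), 0.50 for *let-7* (0.10), -0.18 for the *miR-130* list, -0.79 for *miR-15/16* (-1.23), 0.48 for the *miR-183* list (0.14), 0.19 for *miR-30* (-0.05), -0.27 for the *miR-322* list (-0.63), 0.45 for *miR-99/100* and *miR-125*, 0.079 for other X-linked miRNAs (-0.15) and -0.18 for the *miR-302* cluster (-0.62). The median of all tested miRNAs was 0.11 with the offsets and -0.08 on the same miRNAs without them, and a turn of sign is best read against that shift. The sign turned for *miR-192-5p* (0.089), *miR-295-3p* (0.21), *miR-302b-3p* (0.31), *miR-30c-5p* (0.14), *miR-369-3p* (0.17), *miR-369-5p* (0.15), *miR-540-3p* (-0.20) and *miR-883a-3p* (0.046). With the *Dlk1-Dio3* counts left out of the totals, the difference in share was 0.000288 percentage points for endoderm and 0.0349 for *miR-30*, both with the sign turned.

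Replicate numbers are shared between the groups but mark nothing in the labels, and the deviations of same-numbered libraries correlated at -0.018, 0.414, 0.105 and 0.551. With the number as a replicate block, 63 miRNAs were called and 12 passed the adjusted threshold, 15 were lower in the *Sfmbt2* intron, the median of the *miR-29* and *miR-148* list was -0.97 (-0.59) and *miR-743a-5p* was at -0.20 (0.53).

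Leaving out 1 library at a time gave 12 to 32 lower calls, 8 to 13 adjusted calls and 6 to 9 among the X-linked germline miRNAs, 1 to 4 higher and 2 to 12 lower at *Dlk1-Dio3*, 0 to 20 lower in the *Sfmbt2* intron and 1 to 13 in the pair of clusters. List medians ran from 1.62 to 2.20 for X-linked germline, -0.42 to 0.075 for epithelial, -0.78 to 0.73 for mesenchymal, -1.31 to -0.73 for *miR-15/16*, -0.37 to -0.043 for other X-linked, -0.96 to -0.50 for *miR-290-295*, -0.75 to -0.42 for the *miR-302* cluster and -0.049 to 0.38 for the deleted genes. Log2 fold changes of both signs were seen for *let-7f-5p* (-0.087 to 0.44), *miR-10b-5p* (-0.020 to 1.11), *miR-130b-5p* (-0.0096 to 0.20), *miR-192-5p* (-0.37 to 0.28), *miR-296-3p* (-0.26 to 0.091), *miR-30c-5p* (-0.088 to 0.11), *miR-369-5p* (-0.39 to 0.036), *miR-409-3p* (-0.049 to 0.30), *miR-540-3p* (-0.37 to 0.39), *miR-540-5p* (-1.26 to 0.41), *miR-541-3p* (-0.14 to 0.40), *miR-743a-5p* (-0.66 to 1.01) and *miR-883a-3p* (-1.62 to 0.37). The differences in share, in percentage points, were -0.0235 to 0.0306 for endoderm, -0.138 to 0.132 for *miR-30*, -0.038 to 0.0035 for the *miR-322* list and -0.0013 to 0.0028 for *miR-34*. At the depth of the DKO libraries, levels under 19.4 CPM could not be told from 0.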
